A study of Mus musculus with 8 samples.

Results

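Transcripts of 10 genes of TGF-beta signalling were followed in 8F10 T cells, CD4 T cells whose receptor recognises an insulin peptide, that had developed in NOD or in B16A hosts. The genes, 10 of the 46625 in the count table, were taken by name: the ligand gene Tgfb1, the receptor genes Tgfbr1 and Tgfbr2, the SMAD genes Smad2, Smad3, Smad4 and Smad7, and the repressor genes Ski, Skil and Tgif1. The genes were chosen by a measured value: Smad7 had been called lower in NOD hosts in an earlier comparison of batches 1 to 3 of these libraries, and the other 9 were joined to it by function. The host difference of Smad7 is therefore given as a description, with no test.

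The donors of every library were TCR alpha chain-deficient 8F10 mice carrying CD45.2. Their bone marrow, depleted of T and B cells, was given to non-lethally irradiated hosts carrying CD45.1, and every library is labelled with the strain NOD/ShiLtJ. B16A hosts are NOD mice whose insulin has a changed residue in the B chain, while NOD hosts make native insulin. At 6 weeks the T cells were sorted from the inguinal lymph node, which lies away from the pancreas, and the comparison asks how a host's native insulin bears on them. Each host type had 4 libraries, and each of 4 labelled batches held 1 of each. The host keeps cells that survive irradiation, and whether a library came from 1 animal or from a pool is not given in the sources used here, so the p-values measure the spread between libraries, which may be technical.

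TGF-beta binds TGFBR2, which recruits and activates TGFBR1, and TGFBR1 phosphorylates SMAD2 and SMAD3. These join SMAD4 and enter the nucleus, where SKI, SKIL and TGIF1 hold SMAD target genes in check. SMAD7 closes the loop as an induced inhibitor that blocks the receptor and directs its breakdown, and in T cells the pathway is known for restraining activation and for supporting regulatory T cells.

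The libraries held 4896593 to 6137666 counts in batches 1 to 3 and 28301805 (NOD) and 28094237 (B16A) in batch 4, and levels are given as CPM, read counts scaled to the library's size. Every one of the 10 genes passed the filter on low counts, and none had fewer than 44 counts in any library. The batch 4 libraries stood apart from the other 6. Of 14607 tested genes 38.0% differed at least 4-fold between batch 4 and batches 1 to 3, so values are given by batch throughout. The transcripts were those of CD4 T cells: the 7 markers of that cell type summed to 5070 to 15484 CPM in NOD and 4446 to 11791 CPM in B16A hosts, and all 7 stood above 1 CPM in every library.

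Smad7, the inhibitor of the pathway, was lower in the NOD library of each of the 4 batches. It stood at 330, 176, 325 and 209 CPM in the NOD libraries of batches 1 to 4 and at 544, 341, 458 and 245 CPM in the B16A libraries. In batches 1 to 3 the highest NOD library lay just below the lowest B16A library, while over all 8 libraries the host ranges overlapped, as for all but 0.596% of tested genes, because the B16A library of batch 4, at 245 CPM, lay below 2 of the NOD libraries. The mean level was 260 ± 79.0 CPM with NOD and 397 ± 131 CPM with B16A hosts (SD, n = 4 per host). The within-batch log2 ratios, NOD over B16A host, were -0.72, -0.95, -0.49 and -0.23. The fit with batch as a term gave a log2 fold change of -0.60 ± 0.14 (SE), or 0.662 of the B16A level. Batches 1 to 3 alone gave -0.72 ± 0.14 (SE), the value for which the gene was chosen; batch 4 took no part in that choice and showed the same direction with the smallest ratio. In bulk RNA, fewer cells expressing Smad7 and less Smad7 RNA per cell cannot be told apart.

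**Figure D1:**
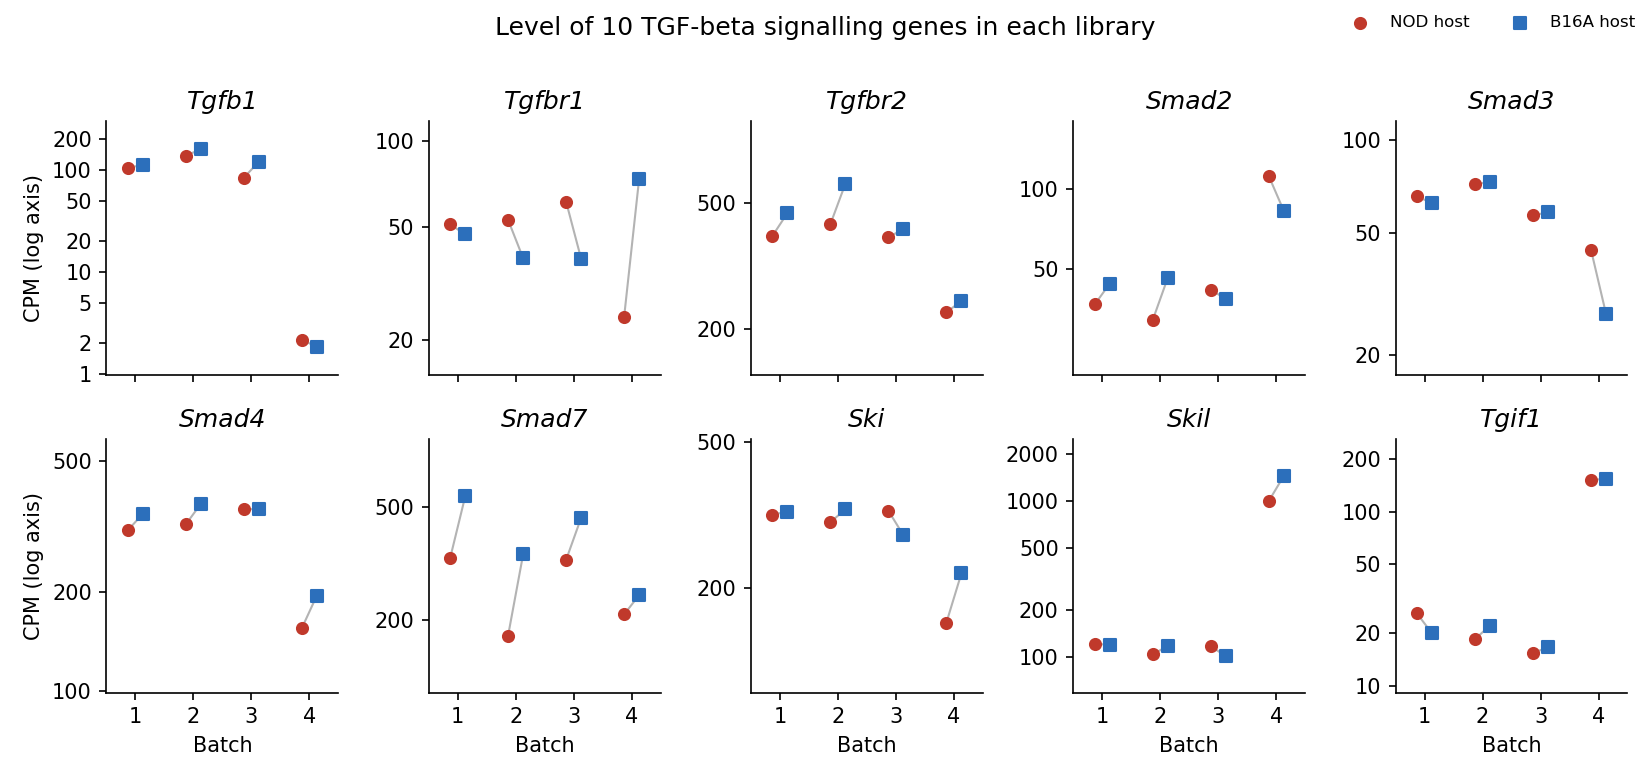
Level of each gene (CPM, log axis, a separate scale per panel) in every library by batch; red circles are NOD hosts, blue squares B16A hosts, and grey lines join the 2 libraries of a batch. Each point is 1 library, so there are no error bars. The Smad7 circle is below the square in all 4 batches, and batch 4 stands apart for Tgfb1, Skil and Tgif1.

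Counts of Smad7 were also set against counts of other pathway genes of the same library, a ratio that does not depend on how libraries are scaled. Per count of Smad4 there were 1.07, 0.550, 0.915 and 1.35 counts of Smad7 in the NOD libraries of batches 1 to 4, and 1.58, 0.922, 1.28 and 1.26 in the B16A libraries. The ratio was lower in the NOD library of batches 1 to 3 and slightly higher in that of batch 4. Per count of Smad3 the NOD libraries held 5.02, 2.45, 5.70 and 4.75 counts of Smad7, fewer than their B16A partners in 4 of 4 batches, with log2 differences of -0.80, -0.93, -0.46 and -0.92. Per count of Tgfbr2 the NOD libraries held 0.837, 0.411, 0.835 and 0.927 and the B16A libraries 1.17, 0.591, 1.10 and 0.997, again lower in 4 of 4. Against Ski the direction turned in batch 4, with 1.31 in the NOD and 1.12 in the B16A library, after log2 differences of -0.70, -0.83 and -0.72 in batches 1 to 3. In batch 4 the direction of the Smad7 difference thus depended on the gene it was set against. Smad3 itself had a log2 ratio of 0.69 in that batch, against -0.23 for Smad7. Smad7 was chosen as lower in batches 1 to 3, so the lower ratios of those batches give no separate support.

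None of the other 9 genes passed the test between hosts (edgeR quasi-likelihood with batch as a term, adjusted p from 0.907 for Tgfbr2 to 0.9998 for Tgif1). That fit called 0 of 14607 genes (0%) at an adjusted p under 0.05, with 857 (5.87%) at an unadjusted p under 0.05, none of them among these 9. DESeq2 with the batch term called 22 genes higher and 4 lower, and its lowest adjusted p among the 9 was 0.575 (Tgfbr2). With batch 4 left out edgeR called 25 genes higher (0.159%) and 7 lower (0.0445%) of 15716, 0.204% in all, and again none of the 9, whose adjusted p ran from 0.475 to 0.995. Of the 9 log2 fold changes 8 were below 0, Tgif1 among them at -0.00, with a median of -0.09, while 48.7% of all tested genes were below 0 and their median was 0.01. This lean did not hold with batch 4 left out, when 7467 of 15716 tested genes were below 0 and their median was 0.02. Smad2, Smad4, Tgfb1 and Tgfbr2 then stood at -0.22, -0.12, -0.27 and -0.25. Tgfbr1, Ski, Skil, Smad3 and Tgif1 then stood above 0, at 0.41, 0.03, 0.02, 0.01 and 0.01.

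**Figure D2:**
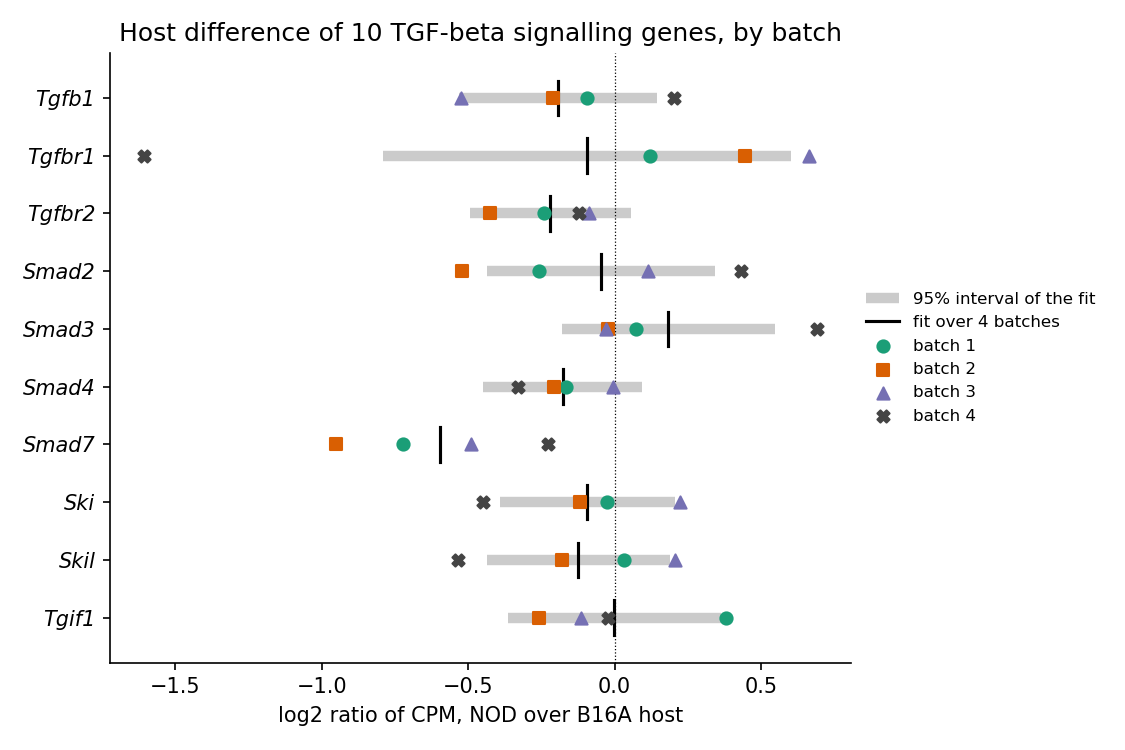
Log2 CPM ratio (NOD host over B16A host) for each gene: 4 symbols for the 4 batches, each the ratio of 1 pair of libraries, a black line for the fit over all batches and a grey bar for its 95% interval (not drawn for Smad7, which is a description). Each symbol of Smad7 lies left of 0, from -0.95 to -0.23, and that of Tgfbr1 in batch 4 lies at -1.61, away from the other 3.

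Tgfb1, the gene of the main TGF-beta ligand of lymphocytes, stood at 105, 138 and 84.0 CPM in the NOD libraries of batches 1 to 3 and at 112, 160 and 121 CPM in the B16A libraries. The NOD library was lower in each of these pairs, and the host ranges overlapped. In batch 4 Tgfb1 was near the floor, at 2.15 CPM with NOD and 1.84 CPM with B16A hosts, from 48 and 44 counts. Averaged on the log scale, batches 1 to 3 were 54.0-fold above batch 4 in both hosts together. The log2 fold change between hosts was -0.19 with a 95% interval of -0.53 to 0.15, and -0.27 (-0.58 to 0.03) without batch 4.

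Tgfbr1, the type I receptor and the kinase that activates SMAD2 and SMAD3, went different ways in batches 1 to 3 and in batch 4. It stood at 50.9, 52.7 and 61.1 CPM in the NOD libraries of batches 1 to 3 and at 46.9, 38.7 and 38.5 CPM in the B16A libraries, with no overlap of the hosts. In batch 4 the order was the other way, 24.0 CPM in the NOD and 73.6 CPM in the B16A library. Across tested genes 10.2% had host ranges that did not overlap in batches 1 to 3, and leaving aside Smad7, which was chosen on these batches, 1 of the 9 genes, Tgfbr1, was among them. The log2 fold change was -0.09 ± 0.32 (SE) over all batches, the widest error among the 9. Without batch 4 it was 0.41 ± 0.17 (SE; edgeR, unadjusted p = 0.0234, adjusted p = 0.475), so the direction rests on that batch; in that comparison 8.37% of tested genes had an unadjusted p under 0.05. The batch 4 values of Tgfbr1 rest on 536 and 1757 counts. Those of batches 1 to 3 rest on fewer, 282 to 374 in NOD and 238 to 308 in B16A hosts. All the libraries were amplified, so in none of them are reads independent molecules. The cause of the change in direction was not tested.

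Tgfbr2, the type II receptor that binds the ligand, was lower in the NOD library of every batch by a small amount. It stood at 394, 429, 390 and 226 CPM in NOD hosts and 465, 577, 414 and 245 CPM in B16A hosts, with overlapping ranges. The log2 fold change was -0.22 with a 95% interval of -0.49 to 0.06 (edgeR, unadjusted p = 0.11, adjusted p = 0.907).

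Smad4, the shared partner of the activated SMADs, resembled it, at 307, 320, 356 and 155 CPM with NOD and 345, 370, 357 and 195 CPM with B16A hosts. Its log2 fold change was -0.18 with a 95% interval of -0.45 to 0.09 (edgeR, adjusted p = 0.938), and in batch 3 the ratio was -0.00. Thus, leaving aside Smad7, 2 of the 9 genes, Smad4 and Tgfbr2, were lower in the NOD library of all 4 batches, as were 6.85% of all tested genes, and none was higher in all 4, as 7.43% were.

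Smad2 and Smad3, the SMADs that TGFBR1 phosphorylates, did not keep one direction over the batches. Smad2 stood at 37.0, 32.4, 42.0 and 112 CPM with NOD and 44.3, 46.5, 38.8 and 82.8 CPM with B16A hosts, lower in the NOD library of batches 1 and 2 and higher in that of batches 3 and 4. Its log2 fold change was -0.05 with a 95% interval of -0.43 to 0.34. Smad3 stood at 65.7, 72.0, 57.0 and 44.1 CPM with NOD and 62.4, 73.2, 58.2 and 27.2 CPM with B16A hosts. The hosts were nearly level in batches 1 to 3, where the log2 fold change was 0.01 with a 95% interval of -0.32 to 0.33, and apart only in batch 4, with a log2 ratio of 0.69.

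Ski and Skil code for related corepressors that bind SMAD complexes, and Tgif1 for a homeodomain repressor of SMAD targets. Ski stood at 317, 302, 325 and 160 CPM with NOD and 323, 328, 278 and 219 CPM with B16A hosts, and its log2 fold change was -0.09 with a 95% interval of -0.39 to 0.20. Skil stood at 122, 104, 117 and 991 CPM with NOD and 119, 118, 101 and 1437 CPM with B16A hosts, with a log2 fold change of -0.12 and a 95% interval of -0.44 to 0.19. Tgif1 stood at 26.0, 18.5, 15.4 and 152 CPM with NOD and 19.9, 22.2, 16.7 and 154 CPM with B16A hosts, with a log2 fold change of -0.00 and a 95% interval of -0.36 to 0.36. None of the repressors kept 1 direction over the 4 batches, and the fits without batch 4 gave 0.03, 0.02 and 0.01 for Ski, Skil and Tgif1.

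The repressors differed more between batches than between hosts. Skil was 10.5-fold and Tgif1 7.80-fold higher in batch 4 than in batches 1 to 3, while Ski stood at 0.601 of its level there. Smad2 was 2.41-fold higher in batch 4. Smad3, Smad4, Tgfbr2 and Smad7 stood at 0.538, 0.509, 0.534 and 0.662 of their level in batches 1 to 3. With Tgfb1, Skil and Tgif1, 3 of the 10 genes moved at least 4-fold, near the 38.0% of all tested genes that did. The GC content of the longest transcript moved with this difference: the 3 genes that were higher in batch 4, Skil, Smad2 and Tgif1, had 41.0%, 44.9% and 45.0% GC, and the 6 genes with 49.4% (Smad4) to 56.9% (Smad7) GC were all lower. Tgfbr1, at 41.0% GC, was near its level in the other batches, at 0.887. The part of GC content in these values was not tested.

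Per length of exon, the genes were ordered by their median over batches 1 to 3. Smad4 led with a median of 94.4 CPM per kilobase (range over 6 libraries 82.8 to 99.6), followed by Smad7 at 74.2 (39.0 to 120), Ski at 57.5 (50.0 to 58.9) and Tgfbr2 at 51.5 (47.6 to 70.4). The ranges of these neighbours overlapped, and Smad7 had the widest, from below every Tgfbr2 value to above every Smad4 value. Tgfb1 came next at 23.1 (16.7 to 31.8), apart from the genes above and below it. Skil at 12.1 (10.5 to 12.6) and Smad3 at 11.6 (10.3 to 13.2) were not separable. Tgfbr1 at 7.49 (5.89 to 9.35), Smad2 at 4.60 (3.68 to 5.30) and Tgif1 at 3.42 (2.73 to 4.62) closed the list, the last pair with overlapping ranges. The common partner Smad4 was thus far above both receptor-activated SMADs, and the type II receptor above the type I receptor in all 6 libraries. In batch 4 Skil led at 102 and 148 and Tgfb1 was last at 0.427 and 0.366 CPM per kilobase in NOD and B16A hosts.

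**Figure D3:**
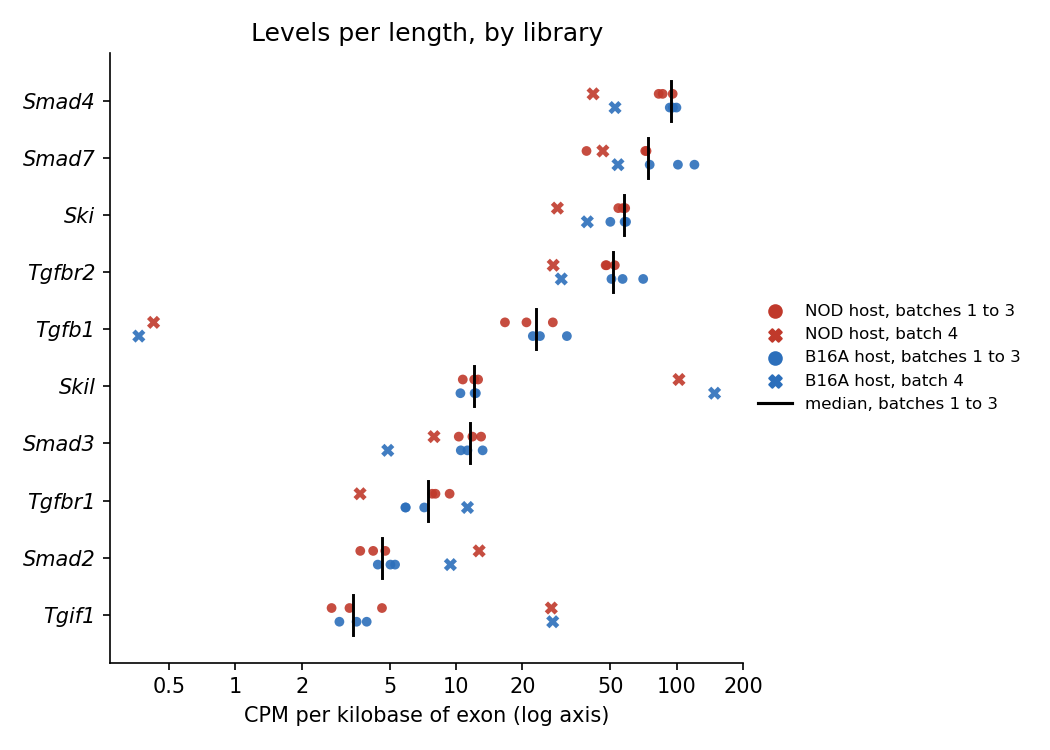
CPM per kilobase of exon (log axis) of each gene in each library; circles are batches 1 to 3, crosses batch 4, red NOD and blue B16A hosts, and black lines the median of the 6 libraries of batches 1 to 3. Smad4 leads with a median of 94.4 and Tgif1 is last with 3.42, and the batch 4 crosses of Skil and Tgfb1 lie far from their circles.

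On mm10, the mouse build named in the submitters' processing notes, and with GENCODE vM21 gene models, Smad7 lies on chromosome 18 (75367529 to 75395935, plus strand). Smad2 (76241580 to 76310963, plus strand) and Smad4 (73639009 to 73703780, minus strand) lie on the same chromosome. Tgfb1 is on chromosome 7 (25687002 to 25705077), Tgfbr1 on chromosome 4 (47353222 to 47414931) with Ski (155154075 to 155222592), and Tgfbr2 on chromosome 9 (116084293 to 116175360) with Smad3 (63646767 to 63757994). Skil is on chromosome 3 (31095058 to 31122577) and Tgif1 on chromosome 17 (70844205 to 70853546). All 10 are protein-coding, and no exon of theirs overlaps an exon of another annotated gene on either strand.

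The rest of the pathway was read from 8 lists with 86 genes in the table, of which 69 were tested. None passed between hosts (edgeR with batch as a term, lowest adjusted p = 0.811 for Id2), and none passed with batch 4 left out, when 70 were tested. At an unadjusted p under 0.05 there were 2 higher, Fkbp1a and Id2, and 1 lower, Pmepa1, against 3.55% higher and 2.31% lower among all tested genes. The median log2 fold change over the 69 was -0.06, with 26 higher and 43 lower. Among all tested genes 48.7% had a value below 0. In the NOD library of all 4 batches 6.85% of them were lower and 7.43% higher. Without batch 4 there were none higher and 3 lower at that p, Runx3, Pmepa1 and the coactivator gene Crebbp, against 4.5% higher and 3.87% lower among all tested genes, and the 70 values split into 32 higher and 38 lower. Of the 3 genes at p under 0.05 over all batches, Pmepa1 was thus the only one also there without batch 4.

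Pmepa1, a TGF-beta-induced gene whose product holds back SMAD2 and SMAD3, stood at 40.1, 29.4, 30.7 and 25.5 CPM with NOD and 38.7, 48.4, 45.5 and 36.7 CPM with B16A hosts. It was level in batch 1 and lower in the NOD library of batches 2 to 4. The log2 fold change was -0.44 ± 0.18 (SE; edgeR, unadjusted p = 0.0295, adjusted p = 0.828). Per count of Smad4 the difference was smaller, with log2 values of 0.22, -0.51, -0.56 and -0.20 in batches 1 to 4. Fkbp1a codes for FKBP12, which binds the type I receptor and keeps it inactive. It was higher in the NOD library of 4 of 4 batches, with a log2 fold change of 0.31 ± 0.13 (SE; edgeR, adjusted p = 0.842). Tab2, an adaptor of the TAK1 kinase, had -0.15 (adjusted p = 0.943). Of the 12 receptor partners 4 had a positive and 8 a negative value.

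Of the 9 other receptors of the superfamily that were tested, 8 had a negative value, against 48.7% of all tested genes. The median of the 9 was -0.27. Without batch 4, 6 of 9 were negative, with a median of -0.11. The activin receptor gene Acvr1b stood at -0.41 (-0.19 without batch 2), and the BMP receptor genes Bmpr2 and Acvrl1 at -0.27 and -0.18. Without batch 4 Bmpr2 was at -0.08. Among the ligands and factors that release them, 9 of 12 were tested, 4 higher and 5 lower, and without batch 4 there were 6 higher and 4 lower of 10. Furin, the protease that processes the TGF-beta precursor, stood at -0.18, or -0.02 without batch 2, and the integrin gene Itgav at -0.12, or 0.25 without batch 4. The other ligand genes were scarce: Tgfb3 reached at most 7.85 CPM and Tgfb2, which did not pass the filter, at most 4.30 CPM.

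Of the other SMADs, Smad1 and Smad5, which act downstream of BMP receptors, stood at 0.06 and -0.00, the latter at 0.25 without batch 4. Smad6, the other inhibitory SMAD, was not tested and lay under 1 CPM in 7 of the 8 libraries, reaching 4.84 CPM in the B16A library of batch 2. Among genes for turnover of SMADs and receptors, Rnf111, a ubiquitin ligase that targets SMAD7, SKI and SKIL, was lower in the NOD library of 4 of 4 batches, with a log2 fold change of -0.29 (edgeR, adjusted p = 0.895). That value was -0.07 without batch 4, and 6.85% of all tested genes were lower in all 4 batches. Usp11 and Wwp2 stood at 0.18 each, and at 0.07 and -0.11 without batch 4. The list had 6 positive and 5 negative values, or 8 and 3 without batch 4.

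Of 10 nuclear partners of SMADs 8 had a negative value, against 48.7% of all tested genes. Runx3, a transcription factor that cooperates with SMADs, stood at 144, 133, 131 and 64.7 CPM with NOD and 164, 184, 174 and 64.4 CPM with B16A hosts. It was lower in the NOD library of batches 1 to 3 and level in batch 4, with a log2 fold change of -0.27 (edgeR, adjusted p = 0.877). The corepressor gene Sin3a stood at -0.21 (edgeR, adjusted p = 0.917), lower in 4 of 4 batches, as were 6.85% of all tested genes. Snw1, a coactivator gene, stood at 0.33, or 0.13 without batch 4.

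Genes that TGF-beta induces were split, 5 higher and 5 lower of 10 tested, with a median of -0.00, and 6 higher and 4 lower with a median of 0.14 without batch 4. Id2, an inhibitor of E proteins, was higher in the NOD library of 4 of 4 batches (log2 fold change 0.50, standard error 0.20, edgeR adjusted p = 0.811), at 5.23 to 9.64 CPM against 4.05 to 6.09 CPM in batches 1 to 3 and 134 against 86.9 CPM in batch 4. Tsc22d1 stood at 0.43 and Tgfbi at -0.60, with standard errors of 0.25 and 0.50, and without batch 2 Tsc22d1 stood at 0.18. Itgae, the integrin of tissue-resident T cells, and Foxp3, the regulatory T cell factor, stayed at most at 9.54 and 8.27 CPM in any library. Of the genes that TGF-beta represses 5 were tested, 3 higher and 2 lower with a median of 0.00054, but without batch 4 all 5 were lower with a median of -0.33, none past the test. Gata3, the factor of type 2 helper cells, stood at -0.16, or -0.04 without batch 2. The granule gene Gzma stood at -0.50, or -0.06 without batch 3, and Prf1 at 0.03, or -0.33 without batch 4.

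**Figure D4:**
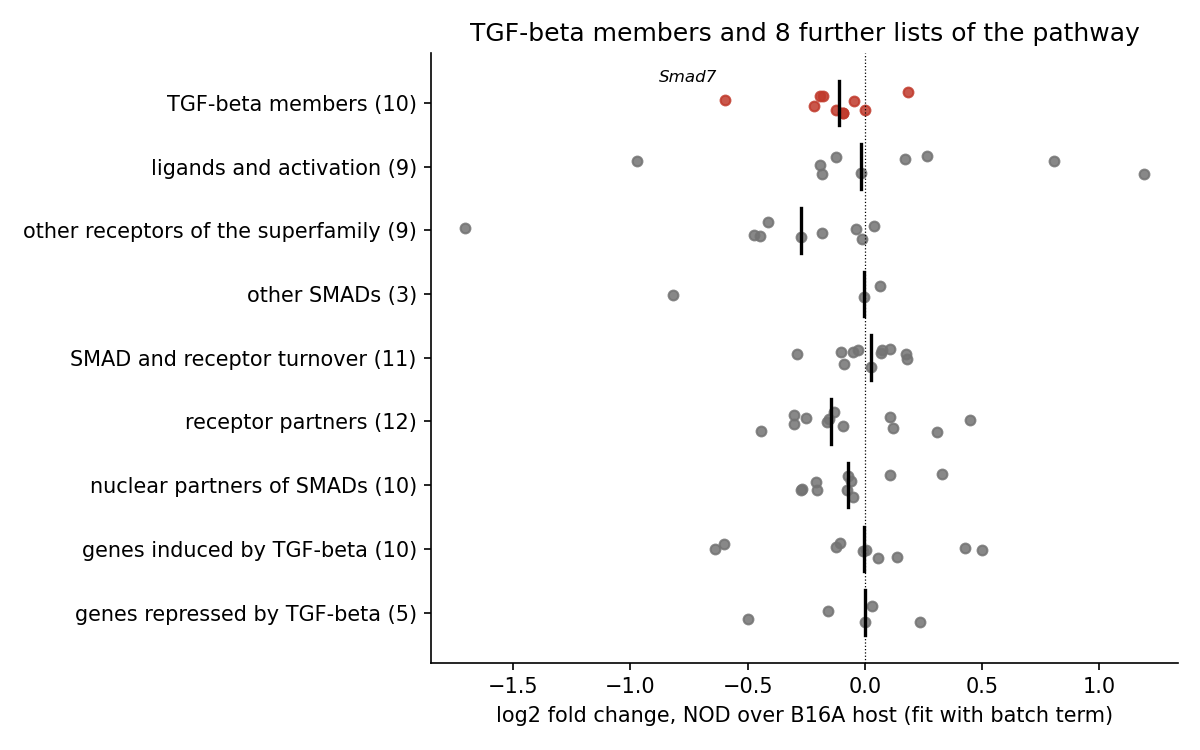
Log2 fold change, NOD over B16A host, from the fit with batch as a term for the 10 genes (red) and the tested genes of 8 further lists (grey, 1 point a gene, spread upwards and downwards at random; number of genes in brackets; black line, median). None of the points of the other genes passed the threshold, and Smad7 is shown with no test. The Smad7 point lies at -0.60, left of the other 9 red points.

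Markers of other cell types were read beside the Smad7 difference. The 6 markers of regulatory T cells summed to 65.2 to 104 CPM in NOD and 47.4 to 88.7 CPM in B16A hosts and were higher in the NOD library of each batch, by log2 ratios of 0.30, 0.56, 0.45 and 0.24. The largest term of this sum in every library was Tnfrsf18, at 26.4 to 82.8 CPM in NOD and 18.6 to 73.6 CPM in B16A hosts, which activated T cells also express. Of the 6, 5 had the higher mean in NOD hosts, and the exception was the lineage factor gene Foxp3, at 0 to 4.30 CPM in NOD and 0.419 to 8.27 CPM in B16A hosts. The sum of the 7 CD4 T cell markers was also higher in each NOD library, by 0.15, 0.19, 0.55 and 0.39, and 6 of the 7 had the higher mean there. The exception was Cd4 itself, at 1028, 1026, 1170 and 917 CPM with NOD and 1160, 1204, 1084 and 699 CPM with B16A hosts, lower in the NOD library of batches 1 and 2. The 6 others are genes of T cells in general. B cell markers summed to at most 25.2 CPM, myeloid markers to 40.2, platelet markers to 6.80 and stromal and endothelial markers to 50.3 CPM in any library, and none of these sums had 1 direction over the 4 batches. Nor did the sum of the 2 CD8 T cell markers, at 65.3 to 186 CPM in NOD and 71.7 to 123 CPM in B16A hosts. Nearly all of that sum was Cd8b1, at 62.6 to 186 CPM in NOD and 69.7 to 122 CPM in B16A hosts. Cd8a stood only at 0 to 2.94 CPM in NOD and 1.09 to 3.56 CPM in B16A hosts. No marker was at 0 in all 8 libraries, and 2 of the 5 platelet markers stayed under 1 CPM in each. The part of cell makeup in the Smad7 difference was not tested.

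The genes whose 4 within-batch ratios lay closest to those of Smad7, among 8089 genes with a mean of at least 10 CPM, were B4galt5, Serpinb6a, Polr3a, Ccdc130 and Has3. B4galt5, a galactosyltransferase gene, lay at a root-mean-square distance of 0.158 on the log2 scale, with ratios of -0.44, -0.98, -0.62 and -0.16. Serpinb6a, an intracellular protease inhibitor gene, lay at 0.195 and Polr3a, which codes for the largest subunit of RNA polymerase III, at 0.202. Ccdc130 and Has3, a hyaluronan synthase gene, lay at 0.204 and 0.209. In batch 4 the ratio of Serpinb6a was 0.16, opposite in direction to that of Smad7. Polr3a and Ccdc130 had ratios of -0.35 and -0.07 there. Has3 was at 0 CPM in both batch 4 libraries, so its likeness rests on the first 3 batches. In all, 14 genes lay within 0.25. With 4 ratios per gene the ranking describes these pairs of libraries only.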

How the data were processed

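RNA was measured in 8 libraries, 4 for each host. Per the labels' protocols, libraries were made after SeqPlex amplification of the RNA and read from 1 end over 50 bases. The authors deposited raw read counts per gene in 1 table, in whole numbers. The submitters' processing notes name STAR, HTSeq, DESeq2 and mm10. How strand and annotation were set is not given in the sources here, so genes with near-identical copies are uncertain.

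Tests on the counts used edgeR 4.0.16 under R 4.3.3 (quasi-likelihood with robust estimation, filterByExpr, TMM), with batch as a term and 3 residual degrees of freedom. The filter left 14607 genes and removed 32018, and p-values were adjusted by Benjamini-Hochberg over all of them, with a threshold of 0.05. The script was tested on simulated data. The labels call the pairing number a batch; deviations from the host means correlated across genes between partners with r = 0.625, 0.702, 0.611 and 0.906. Standard errors and intervals come from the F statistic. Log2 CPM has a prior count of 2. CPM per kilobase uses the merged exon length of GENCODE vM21, and GC content was known for 93.7% of tested genes.

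The 10 genes, the pathway and marker lists and the batch term were chosen with earlier results of these data known. Of each list, the genes past the threshold were named, filled to 3 by the smallest unadjusted p among genes with a mean of at least 4 CPM. Genes named for their low level or for p under 0.05 are additions made after their values were seen. Alternatives were no batch term, DESeq2 1.42.0, its size factors, no filter and leaving out each batch. Ccn2 was looked for under its older symbol Ctgf.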

Additional observations from a re-analysis of the deposited data

Results flagged for a closer look

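In 74 sets of 4 libraries (37 named genes in each host), 22 had 1 library far from the other 3 on the log2 scale. In 21 of them it was the batch 4 library. For 1 set chance gives about 1 in 20, but the sets share libraries and are not independent, so their count cannot be tested against that rate. Among the 10 genes, batch 4 was low for Smad4 in B16A hosts (195 CPM), Tgfb1 in NOD (2.15) and B16A hosts (1.84), and Tgfbr2 (225.6) and Ski (160.1) in NOD hosts. It was high for Skil in NOD (991) and B16A hosts (1437) and for Tgif1 in B16A hosts (154).

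Of the other pathway genes, batch 4 was low in NOD hosts for Itgav (14.3 CPM), Bmpr2 (16.2), Acvrl1 (15.8), Smad5 (40.4), Runx3 (64.7) and Tgfbi (0). It was low in B16A hosts for Usp11 (8.17), Runx3 (64.4) and Tgfbi (0.126). It was high for Snw1 in NOD (248) and B16A hosts (152) and for Id2 in B16A hosts (86.9). Of the genes with ratios like those of Smad7, batch 4 was low for Has3 in B16A hosts (0), and Polr3a in NOD hosts was the exception, with the batch 1 library highest at 32.0 CPM. Its NOD libraries of batches 2 to 4 each stood at 28.6 CPM, so that gap was small and stood out only beside their narrow spread.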

How the results depend on the processing

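The log2 fold change of Smad7 stayed negative in all 10 alternatives, between -0.72 and -0.48 with each batch left out in turn and -0.61 with no replicate block, where its standard error was 0.35 instead of 0.14. Smad3, Smad4, Tgfb1 and Tgfbr2 also kept their direction in all 10. Every alternative holds some of batches 1 to 3, on which Smad7 was chosen, so the kept sign of Smad7 gives no separate support. Of the alternatives, 3 changed the number of genes called, from 0 higher and 0 lower: 11 and 3 with no filter on low counts, 22 and 4 in DESeq2 with the replicate block, and, over the batches left out in turn, 0 to 25 and 0 to 7, the latter without batch 4. None of the 69 to 86 other pathway genes passed in any alternative. In DESeq2 some of them had no adjusted p, Pmepa1 and Id2 among them with the replicate block, and were counted as not passed. With no replicate block Smad2 stood at 0.072 and Smad5 at 0.11, and in DESeq2 with no replicate block Smad2 stood at 0.088, Tgif1 at 0.032 and Smad5 at 0.12. In DESeq2 with the replicate block Tgif1 stood at 0.012 and Smad5 at 0.0079, and with DESeq2 size factors at 0.013 and 0.0081. With no replicate block and without batch 4, Tgfbr1 stood at 0.41, Ski at 0.026, Skil at 0.024, Tgif1 at 0.029, Itgav at 0.25, Smad5 at 0.25, Wwp2 at -0.10 and Prf1 at -0.34. With each batch left out in turn, the ranges that crossed 0 were -0.22 to 0.11 for Smad2, -0.36 to 0.41 for Tgfbr1, -0.20 to 0.029 for Ski, -0.23 to 0.024 for Skil, -0.14 to 0.078 for Tgif1, -0.30 to 0.25 for Itgav, -0.054 to 0.21 for Smad1, -0.14 to 0.25 for Smad5, -0.11 to 0.37 for Wwp2 and -0.33 to 0.23 for Prf1. Without crossing 0, leaving out batch 2 moved Furin to -0.017, Acvr1b to -0.19, Tsc22d1 to 0.18 and Gata3 to -0.045, leaving out batch 3 moved Gzma to -0.058 and Tgfb1 to -0.064, and leaving out batch 4 moved Smad3 to 0.0093 and Rnf111 to -0.068. The cause of these changes was not tested. Leaving out a batch leaves 2 residual degrees of freedom, and Tgfb1 in batch 4 rests on 48 and 44 counts.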

Other observations

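Several early targets of TGF-beta outside the 10 genes stood higher in batch 4 in both hosts. Klf10, a TGF-beta-inducible zinc finger gene, stood at 3.90 to 10.3 CPM in the 6 libraries of batches 1 to 3 and at 140 (NOD) and 154 CPM (B16A) in batch 4. Id3, a target of SMADs, stood at 6.54 to 13.9 CPM against 108 and 84.1 CPM, and Junb at 18.9 to 119 CPM against 350 and 462 CPM. Skil, itself such a target, moved the same way, and Smad7 did not, at 209 and 245 CPM against 176 to 544 CPM in batches 1 to 3. Both hosts showed these levels, and batch 4 holds only 1 library of each.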
